A study of Homo sapiens with 12 samples.

Results

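The genes described here encode the subunits, assembly factors and regulators of the proteasome: they are the genes of the deposited table whose symbol is PSMA, PSMB, PSMC, PSMD, PSMF or PSMG followed by digits, together with PSME3, PSME4 and POMP and without the immunoproteasome subunits PSMB8, PSMB9 and PSMB10. This gave 44 of the 38478 genes of the table, and no expression value was used to choose them. RNA was measured in OPM-1, an established human multiple myeloma cell line, after 48 h in DMSO (the vehicle), in lenalidomide at 0.1 μM (LEN), in AI-10-104 at 1 μM (RUNXi, a small molecule that inhibits RUNX transcription factors) or in both agents together (LEN+RUNXi), with 3 biological replicates per condition and 12 samples in all. OPM-1 is a model grown from a single patient's tumour, so differences between conditions were measured in 1 line only. Values are RPKM, reads scaled to the length of the gene and to the total of the sample, and 16352548 to 31386210 reads per sample were counted on genes. Depth differed by condition, with 16352548 to 20419807 reads in LEN+RUNXi, below every DMSO (21297486 to 31386210) and RUNXi sample (22784874 to 29512562). LEN had 19442512 to 30478783 reads. The part of depth in the differences below was not tested.

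The proteasome degrades proteins that carry ubiquitin chains. Its barrel-shaped core particle, the 20S proteasome, is built of rings of PSMA (alpha) and PSMB (beta) subunits, with the proteolytic sites in PSMB5, PSMB6 and PSMB7, and the 19S regulatory particle on its ends binds, deubiquitinates and unfolds substrates with the PSMC ATPases and the PSMD non-ATPase subunits. Chaperones (POMP, PSMG1 to PSMG4, PSMD5, PSMD9 and PSMD10) assemble both particles, PSME3 and PSME4 encode alternative caps and PSMF1 encodes an inhibitor. Myeloma cells make large amounts of immunoglobulin and are treated with proteasome inhibitors that bind PSMB5, and LEN acts through the proteasome, by directing the transcription factors IKZF1 and IKZF3 to a ubiquitin ligase.

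Plasma cell markers were present as the labelled cell line requires: 7 of 8, among them SDC1, IRF4, XBP1 and TNFRSF17, reached a mean of 0.5 RPKM, and CD27 did not. The summed level of the 3 T cell markers reached 0.563 RPKM at most, and the sums for the myeloid, B cell, stromal and epithelial markers were lower still at their highest. HBB, an erythroid marker, gave 18.2 to 22.9 RPKM together with HBA1 in all 4 conditions. The part of these in the values below was not tested. Because RNA was pooled over the cells of a culture, fewer cells with a transcript and less of it per cell cannot be told apart. RPKM are also relative to the total of each sample.

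Proteasome transcripts were abundant. The 41 members whose mean over the samples reached the minimum set for testing, 0.5 RPKM, had a median level of 85.5 RPKM, against 8.59 RPKM for all 11241 genes that passed it, and 27 of the 41 were in the top 10% of these genes by level. The members together held 0.755% to 0.792% of the reads of a sample. Levels within the complex were unequal, although RPKM are per length. In DMSO the highest member was PSMB4, a beta ring subunit, at 592 ± 13.1 RPKM (SD, n = 3), followed by the alpha ring subunit PSMA7 at 329 ± 9.66 and the 19S subunit PSMD7 at 258 ± 5.03. Of the 40 pairs of neighbours in the order of DMSO means, 20 had samples that did not overlap and 20 had samples that did, among the latter PSMA2, PSMB1, PSMA4 and PSMD4 between 196 and 177 RPKM and the run from PSMD14 to PSMC4 between 98.8 and 90.9 RPKM. These orders rest on the gene lengths the authors used, which were 0.578 times the exon bases of GENCODE in the median member.

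**Figure D1:**
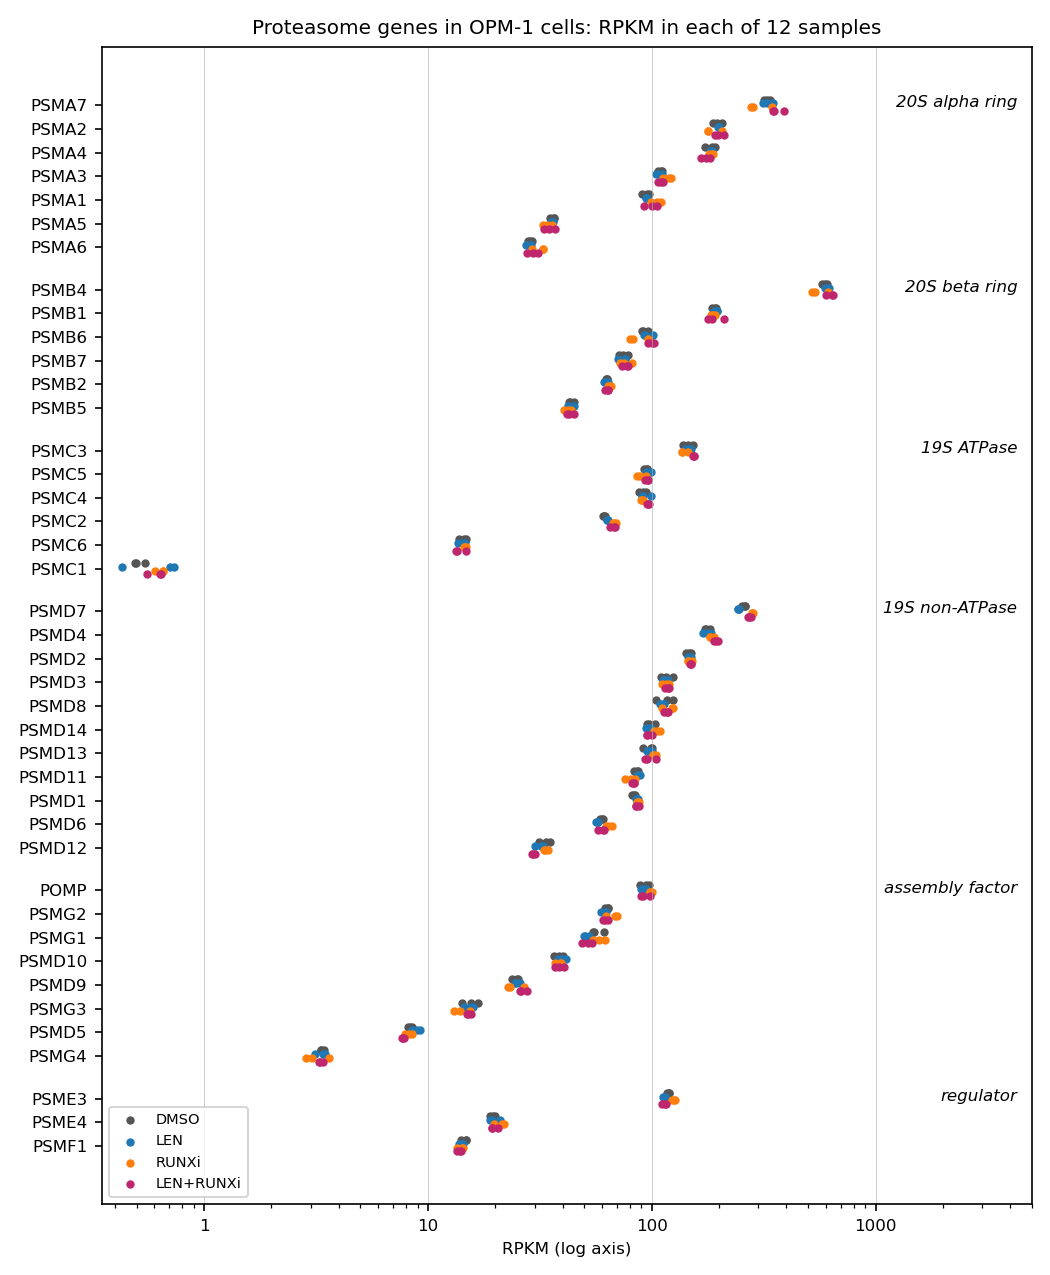
RPKM on a log axis for the 41 tested proteasome genes, grouped by role and ordered by their DMSO mean, with a point for each of the 12 samples coloured by condition. Genes differ from PSMB4 at 592 RPKM to PSMG4 at 3.36 RPKM and PSMC1 at 0.511 RPKM in DMSO, while the 12 points of a gene lie close together for all but PSMC1.

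Among the alpha ring genes, DMSO means ran from 28.6 ± 0.604 RPKM for PSMA6 to PSMA7. Among the beta ring genes PSMB5, which carries the chymotrypsin-like site, was lowest at 43.7 ± 1.17 RPKM, 13.6-fold below PSMB4, while the other catalytic subunits PSMB6 and PSMB7 were at 92.8 ± 3.35 and 74.8 ± 3.34 RPKM. PSMC3 at 145 ± 6.98 RPKM was the highest 19S ATPase gene, and PSMD12 at 33.4 ± 1.91 RPKM the lowest 19S non-ATPase gene, below PSMD14, the deubiquitinase of the lid (98.8 ± 4.44), PSMD4, a ubiquitin receptor (177 ± 4.67), and PSMD2, a scaffold subunit (146 ± 3.40). Of the assembly factors, POMP, which matures the core particle, was highest at 93.6 ± 4.17 RPKM, and the PSMG chaperones were at 63.1 ± 1.19 (PSMG2), 57.0 ± 3.51 (PSMG1), 15.5 ± 1.30 (PSMG3) and 3.36 ± 0.0519 RPKM (PSMG4). Of the regulators, PSME3 (the nuclear cap PA28 gamma) stood at 119 ± 1.47 RPKM, PSME4 (PA200) at 19.4 ± 0.515 and PSMF1 (PI31) at 14.5 ± 0.453.

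Of the 44 members, 3 did not reach the minimum level and were not tested. PSMA8 and PSMB11, the testis and thymus subunits, had 0 to 3 reads and 0 reads per sample. PSMB3, a constitutive subunit of the beta ring, is listed at 0 in all 12 samples, and the length listed for it is 1592 bases, against 1168 exon bases in GENCODE. The annotation used for counting is not given in the sources used here, so this 0 was not read as absence of the transcript. The beta ring sums below hold PSMB3 at 0. PSMC1, an ATPase that every 19S particle holds, passed at only 0.511 ± 0.0304 RPKM in DMSO and 33 to 68 reads per sample. Its exons overlap those of NRDE2 on the opposite strand over 4667 bases, and whether the counting used strand is not given in the sources used here, so the value of PSMC1 is uncertain and the part of this overlap in it was not tested.

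The levels held nearly still across the 4 conditions. The coefficient of variation over all 12 samples had a median of 4.61% among the 41 members. The median was 6.94% for all genes tested and 5.38% for the 5196 genes whose mean reached 10 RPKM. Values under 10% were found for 40 of the 41 (97.6%), against 71% of all genes tested and 90.7% of those 5196. PSMB5, the target of the clinical inhibitors, was among the steady ones. PSMB5 was at 45.0, 42.9 and 43.2 RPKM in DMSO, at 42.4, 42.5 and 44.8 in LEN, at 40.7, 42.2 and 43.7 in RUNXi and at 41.9, 42.6 and 44.8 in LEN+RUNXi. Its samples overlapped between every pair of conditions. POMP showed the same narrow range. POMP was at 89.1, 94.4 and 97.3 RPKM in DMSO, at 91.2, 89.7 and 94.2 in LEN, at 97.9, 98.3 and 100.3 in RUNXi and at 91.5, 89.6 and 98.5 in LEN+RUNXi. The RUNXi samples of POMP were above every DMSO sample and overlapped those of LEN+RUNXi.

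Summed over a role group, the highest sample was 1.07 to 1.19 times the lowest. The 11 non-ATPase genes of the 19S particle summed to 1271 ± 15.8 RPKM in DMSO, 1251 ± 11.98 in LEN, 1322 ± 5.86 in RUNXi and 1303 ± 20.03 in LEN+RUNXi (SD, n = 3). The beta ring sum was 1057 ± 19.2 RPKM in DMSO and 1014 ± 67.3 in RUNXi, where RUNXi replicate 2 gave 1091 and the other replicates 965 and 988. The regulators summed to 153 ± 2.42 RPKM in DMSO, 147 ± 1.15 in LEN, 160.3 ± 3.93 in RUNXi and 147 ± 3.07 in LEN+RUNXi.

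**Figure D2:**
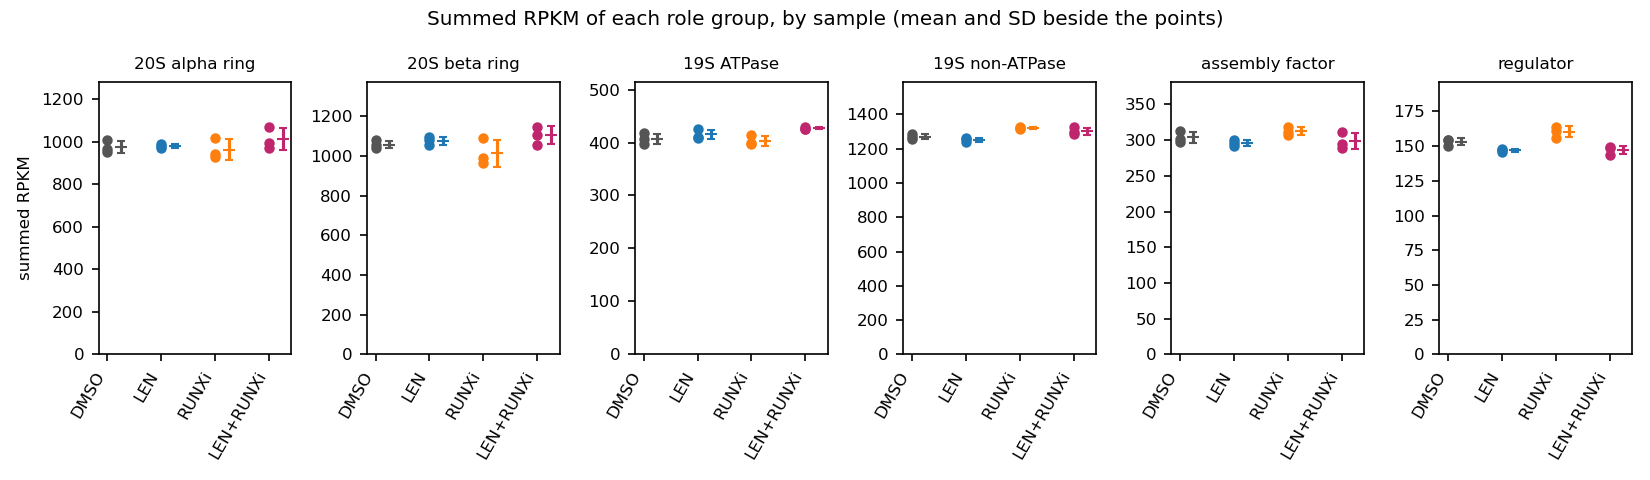
Summed RPKM of the members of each role group in each sample (points), with the mean and SD of the 3 replicates beside them, on axes that start at 0. In no group was the highest sample over 1.19 times the lowest.

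To ask whether LEN altered proteasome expression, LEN was compared with DMSO. Proteasome genes were level between the 2 conditions: 0 of 41 passed the test, which asked that the limma adjusted p be at most 0.05 and the absolute log2 difference at least 0.32 (1.25-fold), where 0.649% of all genes tested passed it. Without the fold threshold the count was also 0 (1.13% of all genes), limma's voom on the reads gave 0, and an unadjusted p under 0.05 was found for 4 members (10.7% of all genes). The data also bounded the change. For 40 of 41 members the 95% interval of the difference lay within 0.32 of 0 on the log2 scale, against 75.4% of all genes tested and 95.4% of those with a mean of at least 10 RPKM, and the exception was PSMC1 (-0.16 to 0.59). The median difference was -0.00078 over the members and -0.0021 over all genes.

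The largest differences under LEN after that of PSMC1 (0.22) were those of PSMG1, a chaperone of the alpha ring, and PSMD5, a chaperone of the 19S base. PSMG1 was lower in LEN by 0.16 on the log2 scale, with its samples below those in DMSO (limma adjusted p = 0.25). PSMD5 differed by 0.098 (SE 0.043, 95% interval 0.005 to 0.19, limma adjusted p = 0.429), and the LEN samples were above those in DMSO. Neither passed. PSMB5 differed by -0.016 (SE 0.039, 95% interval -0.10 to 0.07, limma adjusted p = 0.95) and PSMB6 by 0.048 (SE 0.065, 95% interval -0.094 to 0.19, limma adjusted p = 0.896), so that for both the interval leaves no room for a change of 1.25-fold. In 7 of 41 members the samples of the 2 conditions did not overlap, against 16.4% of all genes.

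**Figure D3:**
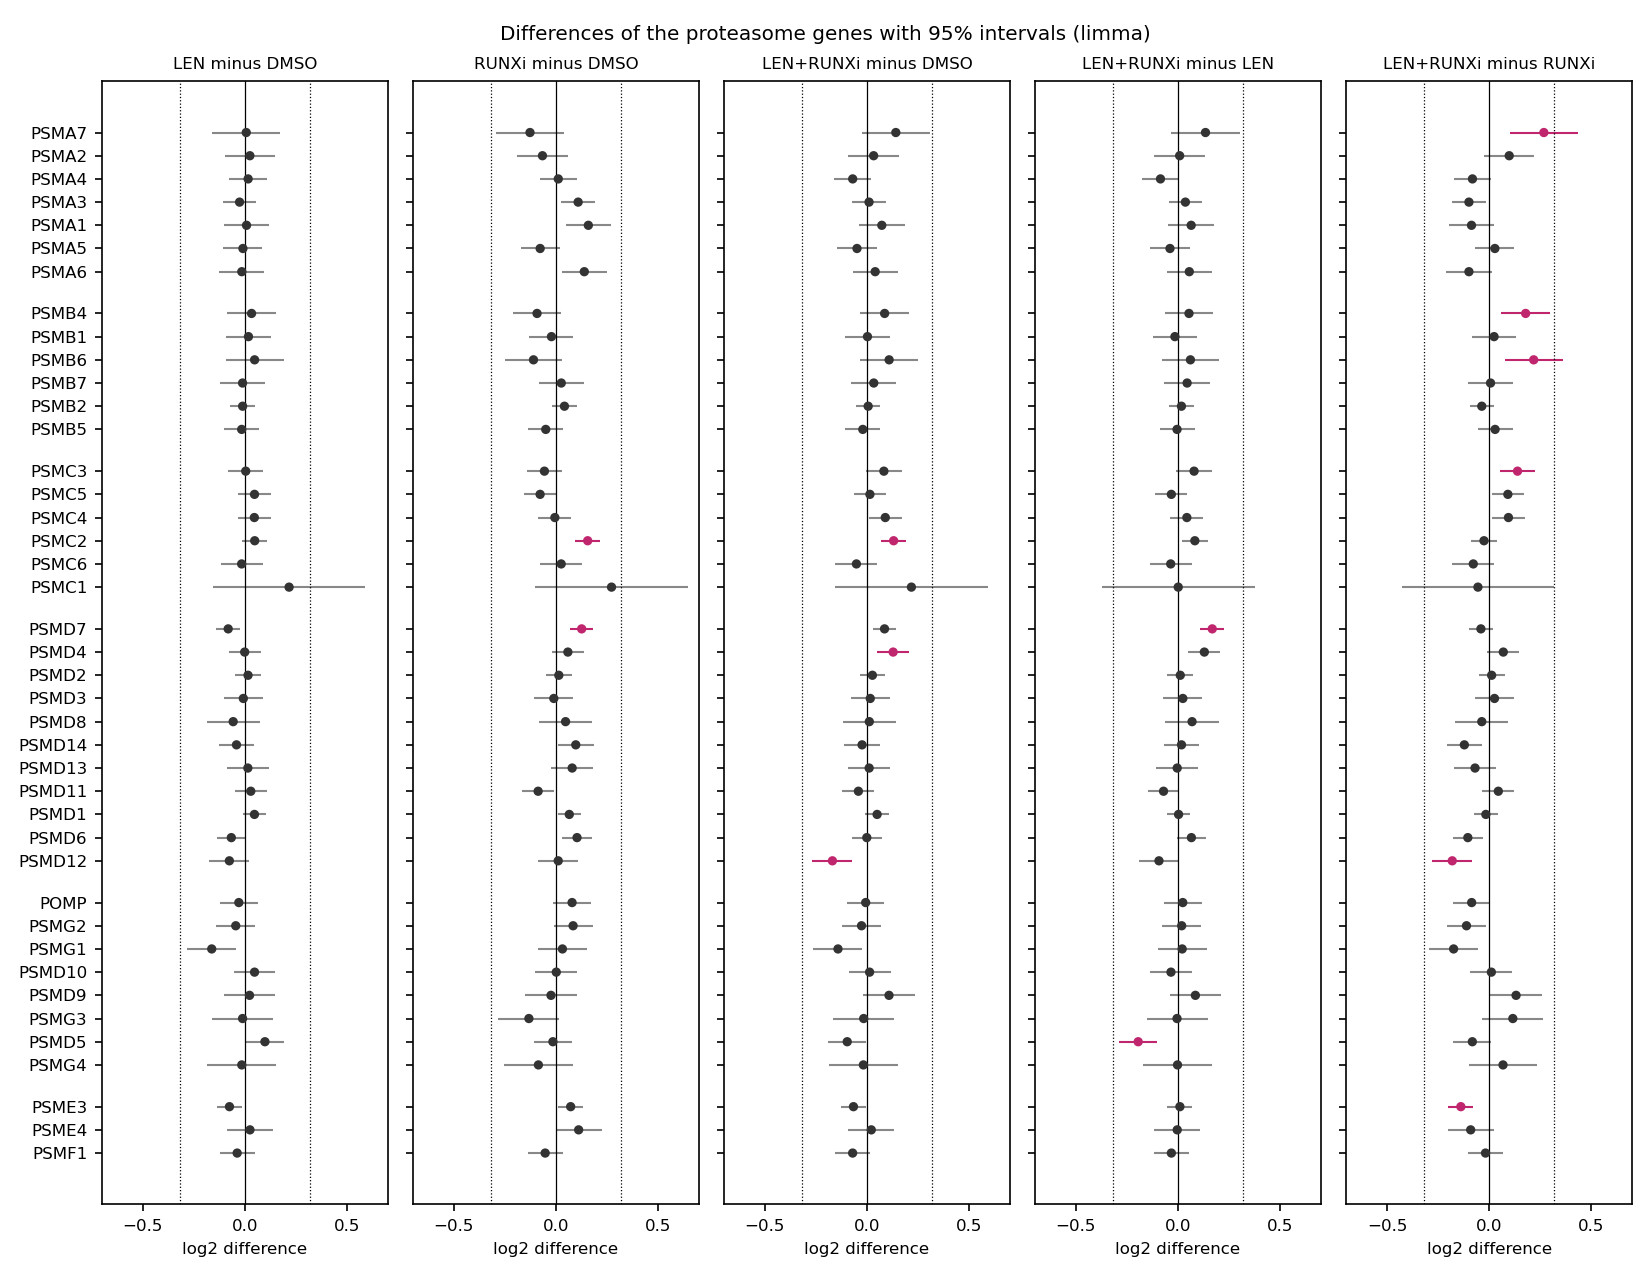
Log2 difference (points) and 95% interval (lines) from limma for each of the 41 tested members in the 5 comparisons of conditions, with dotted lines at the fold threshold of 0.32. Coloured members have an adjusted p of at most 0.05, and no point lies beyond the dotted lines.

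RUNXi was compared with DMSO in the same way. Again 0 of 41 members passed with the fold threshold (also 0 by voom), where 1.77% of all genes did. An unadjusted p under 0.05 was found for 10 members, against 21.9% of all genes. With the adjusted p alone 2 members passed, both higher in RUNXi, or 4.88% of the members against 4.55% of all genes. They were PSMC2, an ATPase of the 19S base (chromosome 7, 103328570 to 103370346, plus strand, GRCh38), and PSMD7, a structural subunit of the 19S lid (chromosome 16, 74296814 to 74306288, plus strand). PSMC2 was at 61.1, 62.0 and 60.4 RPKM in DMSO, at 63.3, 63.0 and 63.5 in LEN, at 67.4, 67.6 and 69.6 in RUNXi and at 65.1, 67.7 and 68.2 in LEN+RUNXi. Every RUNXi sample was above every DMSO sample, and the log2 difference was 0.16 (SE 0.029, 95% interval 0.093 to 0.22, limma adjusted p = 0.0117), or 1.11-fold (95% interval 1.07 to 1.16). PSMD7 was at 252, 260.3 and 262 RPKM in DMSO, at 246, 244 and 242 in LEN, at 279.5, 282 and 283 in RUNXi and at 272, 271 and 279 in LEN+RUNXi. The RUNXi samples were again above all DMSO samples, with a log2 difference of 0.13 (SE 0.026, 95% interval 0.068 to 0.18, limma adjusted p = 0.0217). The PSMC2 call was lost without RUNXi replicate 3 (adjusted p = 0.0577) and after correction for GC content and gene length, which lowered its difference to 0.096 on the log2 scale. The fit to only the conditions compared lost it too (limma adjusted p up to 0.105 under these settings). The PSMD7 call was lost without DMSO replicate 1 or 2 or RUNXi replicate 1 or 3, with an adjusted p of up to 0.0889. It was also lost when all genes with any value above 0 were tested and in the fit to only the conditions compared (limma adjusted p up to 0.136). The PSMD7 call held after the GC content and gene length correction.

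Of the 41 members, 24 had a higher and 17 a lower mean log2 level in RUNXi than in DMSO. In 12 of 41 members (29.3%) all RUNXi samples were above all DMSO samples, among them PSMA1, PSMA3 and PSMA6 of the alpha ring, PSMD1, PSMD6 and PSMD13 of the 19S particle, POMP and PSME3, against 13.1% of all genes, and in 0 of 41 were they all below, against 10.2% (23.3% of all genes in either direction). In limma, PSMC2 and PSMD7 were the only members of the 12 to pass with the adjusted p. Voom passed PSMA1 as well (voom adjusted p = 0.0338), so 3 members, or 7.32%, against 8.83% of all genes. The largest difference of the 12 after PSMC1 was that of PSMA1, at 0.16 (SE 0.051, 95% interval 0.048 to 0.27, limma adjusted p = 0.0991). Of the 12, PSMA3, PSMA6, PSMC2, PSMD6 and POMP have 36.8% to 39.4% GC. The others, PSMA1 and PSMD7 among them, have 43.0% to 49.1%. Across the 41 members the RUNXi minus DMSO difference had a Pearson's r of -0.422 with GC content. Across all genes tested with a GC value r was -0.196, with genes not independent and the same 6 libraries behind every point. In the other direction PSMG3, PSMA7 and PSMB6 were lower by 0.13, 0.13 and 0.11 on the log2 scale, with samples that overlapped those in DMSO and limma adjusted p of 0.284, 0.36 and 0.35. The median difference of the members was 0.014, beside 0.0081 for all genes, and for 40 of 41 the 95% interval stayed within 0.32 of 0 (70.0% of all genes, 89.2% of those with a mean of at least 10 RPKM). Without RUNXi replicate 2, 10 members passed with the adjusted p alone, or 24.4% of the members, and the share of all genes was 13.9% in that fit, up from 4.55%: PSMA1, PSMA6, PSMC2, PSMD7 and PSMG2 were higher in RUNXi and PSMA7, PSMB4, PSMB6, PSMC5 and PSMD11 lower, none by 0.32.

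LEN+RUNXi was next compared with DMSO, in a comparison that shares its DMSO samples with those above. Here 2.94% of all genes passed with the fold threshold and 0 of 41 members did (0 by voom). With the adjusted p alone 3 members passed (8.64% of all genes), and 8 had an unadjusted p under 0.05 (23.7% of all genes). PSMC2 was higher by 0.13 (SE 0.029, 95% interval 0.068 to 0.19, limma adjusted p = 0.0173). PSMD4, the ubiquitin receptor (chromosome 1, 151254709 to 151267479, plus strand), was higher by 0.13 (SE 0.036, 95% interval 0.05 to 0.21, limma adjusted p = 0.0466). PSMD12, a lid subunit (chromosome 17, 67337916 to 67366605, minus strand), was lower, with a difference of -0.17 (SE 0.045, 95% interval -0.27 to -0.071, limma adjusted p = 0.0384), or 0.889-fold (95% interval 0.831 to 0.952).

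PSMD4 was at 182, 174 and 175 RPKM in DMSO, at 169.6, 184 and 178 in LEN, at 182, 189 and 182 in RUNXi and at 189, 194 and 197 in LEN+RUNXi. The LEN+RUNXi samples of PSMD4 were above all samples of DMSO, of LEN and of RUNXi. PSMD12 was at 31.4, 33.6 and 35.2 RPKM in DMSO, at 32.1, 30.1 and 32.7 in LEN, at 33.5, 32.9 and 34.5 in RUNXi and at 29.4, 30.1 and 29.3 in LEN+RUNXi. The LEN+RUNXi samples of PSMD12 were below all DMSO and RUNXi samples and overlapped those in LEN. The PSMD12 call was lost in 7 and the PSMD4 call in 8 of the 12 fits that left out 1 sample, with adjusted p up to 0.129 and 0.163, DMSO replicates 2 and 3 and each LEN+RUNXi replicate among the samples concerned for both. PSMC2 was lost without DMSO replicate 3, LEN+RUNXi replicate 2 or LEN+RUNXi replicate 3 (adjusted p up to 0.0663). Of the other settings, median-ratio rescaling and the fit to only the conditions compared lost PSMC2 (adjusted p up to 0.0612), 3 of 11 lost PSMD12 (up to 0.0734) and 5 of 11 lost PSMD4, median-ratio rescaling among them (up to 0.117). The correction for GC content and gene length lowered the PSMD4 difference to 0.075 (limma adjusted p = 0.0405). PSMG1 (-0.14, limma adjusted p = 0.139) and PSMA7 (0.14, adjusted p = 0.291) had the next largest differences after PSMC1 (0.22) and PSMD12. The members' median difference was 0.011, beside 0.020 for all genes. The interval stayed within 0.32 of 0 for 40 of 41 (69.1% of all genes, 90.2% of those with a mean of at least 10 RPKM). In 14 members the samples did not overlap, 10 higher and 4 lower, against 29.2% of all genes in either direction.

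Adding RUNXi to LEN gave 2 members with an adjusted p of at most 0.05, where 4.62% of all genes had one, and 0 of 41 with the fold threshold as well, against 1.68% of all genes (0 members by voom, and 4 with an unadjusted p under 0.05 against 20.6% of all genes). PSMD7 was higher in LEN+RUNXi than in LEN, by 0.17 (SE 0.026, 95% interval 0.11 to 0.23, limma adjusted p = 0.00451), or 1.12-fold (95% interval 1.08 to 1.17). This was the only difference of the members to keep an adjusted p of at most 0.05 in all 12 fits that left out 1 sample and under the 11 other settings, with a difference of 0.14 to 0.18 on the log2 scale. In the values of PSMD7 given above, the 3 LEN samples were the lowest of the 12, the DMSO samples came next, and all 6 samples with RUNXi were above every DMSO sample. The samples of LEN alone and DMSO differed by -0.082 (SE 0.026, 95% interval -0.14 to -0.024, limma adjusted p = 0.223). PSMD7 exons overlap an unnamed gene on the opposite strand over 842 bases, and reads from either could not be separated here. Among the other members that passed with the adjusted p, exons of PSMC2 overlap those of SLC26A5 and PMPCB over at most 197 bases, and exons of PSME3 those of BECN1 on the opposite strand over 300 bases.

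PSMD5 (chromosome 9, 120815496 to 120842951, minus strand) was lower in LEN+RUNXi than in LEN, with a difference of -0.20 (SE 0.043, 95% interval -0.29 to -0.10, limma adjusted p = 0.0253). PSMD5 was at 8.28, 8.12 and 8.49 RPKM in DMSO, at 9.27, 8.90 and 8.52 in LEN, at 7.90, 8.21 and 8.54 in RUNXi and at 7.81, 7.67 and 7.78 in LEN+RUNXi. The LEN+RUNXi samples were the lowest of the 12, and the LEN samples were above all DMSO samples. The call was lost without LEN replicate 1 or 2 or any LEN+RUNXi replicate, with adjusted p up to 0.114. It was also lost in the fit to only the conditions compared (limma adjusted p = 0.0664). The next largest differences were those of PSMA7 (0.13, limma adjusted p = 0.352) and PSMD4 (0.13, adjusted p = 0.0659). In 40 of 41 members the interval stayed within 0.32 of 0 (70.4% of all genes, 91.1% of those with a mean of at least 10 RPKM). The median difference was 0.017, beside 0.023 for all genes. Samples did not overlap in 9 members, against 26.4% of all genes.

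**Figure D4:**
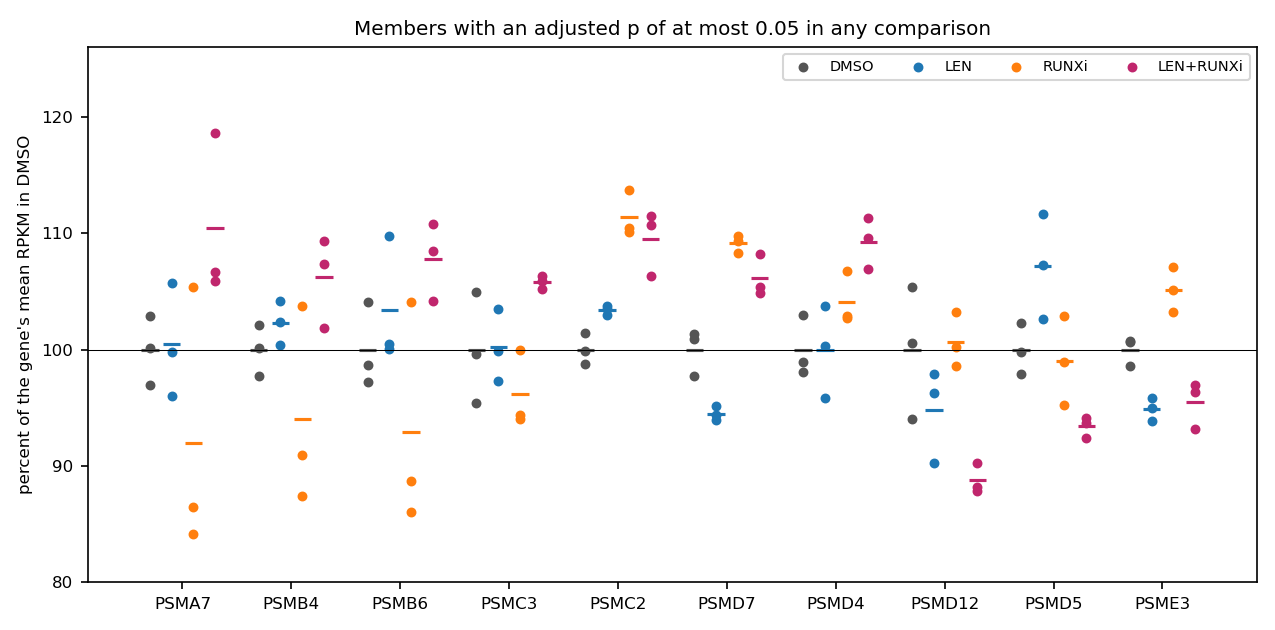
RPKM of the 10 members with an adjusted p of at most 0.05 in any comparison, as a percent of the gene's mean in DMSO, with a point per sample and a short line at the mean of 3 replicates. RUNXi replicates 1 and 3 lie below replicate 2 for PSMA7, PSMB4 and PSMB6, and the LEN samples of PSMD7 lie below all others.

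LEN+RUNXi was last compared with RUNXi. With the adjusted p alone 6 members passed (0 without RUNXi replicate 1), or 14.6% of the members against 15.0% of all genes, and with the fold threshold 0 of 41 did (0 by voom), against 3.63%. By voom with the adjusted p alone PSMG1 passed as well, which made 17.1% of the members against 17.6% of all genes. An unadjusted p under 0.05 was found for 14 members (33.2% of all genes). Of the core particle, PSMA7 (chromosome 20, 62136733 to 62143440, minus strand) was higher in LEN+RUNXi by 0.27 (SE 0.076, 95% interval 0.10 to 0.44, limma adjusted p = 0.0371), PSMB6, which carries the caspase-like site (chromosome 17, 4796144 to 4798502, plus strand), by 0.22 (limma adjusted p = 0.0431), and PSMB4 (chromosome 1, 151399560 to 151401937, plus strand) by 0.18 (adjusted p = 0.0478). The ATPase PSMC3 (chromosome 11, 47418769 to 47426473, minus strand) was higher by 0.14 (adjusted p = 0.0375). PSMD12 and PSME3 (chromosome 17, 42824385 to 42843760, plus strand) were lower, by 0.18 (adjusted p = 0.0234) and 0.14 (adjusted p = 0.0109) on the log2 scale.

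PSMA7 was at 329, 319 and 338 RPKM in DMSO, at 316, 348 and 328 in LEN, at 277, 346 and 284 in RUNXi and at 348, 351 and 389.7 in LEN+RUNXi. The LEN+RUNXi samples of PSMA7 were above all others, and RUNXi replicates 1 and 3 were the lowest of the 12 while RUNXi replicate 2 was in the range of LEN. PSMB6 was at 96.5, 90.2 and 91.5 RPKM in DMSO, at 93.2, 102 and 92.8 in LEN, at 82.3, 96.5 and 79.8 in RUNXi and at 96.6, 100.6 and 103 in LEN+RUNXi. PSMB4 was at 605, 593 and 579 RPKM in DMSO, at 594, 617 and 606 in LEN, at 518, 614 and 539 in RUNXi and at 604, 636 and 648 in LEN+RUNXi. Replicates 1 and 3 of RUNXi were again the lowest for PSMB6 and PSMB4, and RUNXi replicate 2 of PSMB4 was above 1 of the 3 LEN+RUNXi samples. PSME3 was at 119.9, 120.0 and 117 RPKM in DMSO, at 113, 114 and 112 in LEN, at 128, 123 and 125 in RUNXi and at 115, 116 and 111 in LEN+RUNXi. All 6 samples with LEN had less PSME3 than any DMSO sample, and the RUNXi samples had more. PSMC3 was at 152, 145 and 139 RPKM in DMSO, at 145, 150.4 and 141 in LEN, at 137, 145 and 137 in RUNXi and at 153, 154 and 154 in LEN+RUNXi. For PSMC3 the LEN+RUNXi samples were the 3 highest of the 12.

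In this comparison the members' differences rose with GC content, though not for every member that passed. Across the 41 members the LEN+RUNXi minus RUNXi difference had a Pearson's r of 0.643 with the GC content of the longest transcript, and across the 10042 genes tested with a GC value r was 0.335; the points share the same 6 libraries, and genes are not independent. Of the members that passed, PSMA7, PSMB6 and PSMC3 have 55.5%, 54.5% and 56.2% GC, and PSMD12 has 37.5%. PSMB4, which was higher, and PSME3, which was lower, have similar GC, at 48.2% and 49.1%. Whether GC content caused the differences was not tested. Genes with over 55.1% GC lay below those with under 41% by 0.145 and 0.166 on the log2 scale, relative to each gene's mean, in RUNXi replicates 1 and 3 and by 0.0157 in RUNXi replicate 2, whereas they lay 0.0522 to 0.125 above them in LEN+RUNXi. The same value also varied between replicates of the other conditions. It was 0.105, -0.0143 and -0.0979 in DMSO replicates 1, 2 and 3 and -0.0324, 0.118 and -0.0298 in LEN. Once the samples had been corrected for GC content and gene length, PSMA7 (0.14, adjusted p = 0.132), PSMB4 (0.12, 0.0707), PSMB6 (0.090, 0.182) and PSMC3 (0.037, 0.326) did not pass in limma, and PSMD12 (-0.097, adjusted p = 0.0250) and PSME3 (-0.15, adjusted p = 0.00274) did. Without RUNXi replicate 2, PSMA7 differed by 0.37 and passed with the fold threshold (limma adjusted p = 0.00153), and it was the only member called in any comparison of conditions by leaving out a sample. Of the 12 fits that left out 1 sample, 7 lost PSMA7, 7 PSMC3, 9 PSMB6 and 11 PSMB4, with adjusted p up to 0.148, 0.133, 0.162 and 0.182, and for all 4 these included the fits without RUNXi replicate 1 or 3 or any LEN+RUNXi replicate. PSME3 failed without RUNXi replicate 1 (adjusted p = 0.0586), while PSMD12 failed without RUNXi replicate 1 or 3 or LEN+RUNXi replicate 1 or 3 (adjusted p up to 0.0899). Of the 11 other settings, 7 kept PSMA7, 5 PSMB4, 6 PSMB6, 6 PSMC3, 11 PSMD12 and 10 PSME3. Median-ratio rescaling was among the settings that lost PSMB4, PSMB6 and PSMC3. The interval stayed within 0.32 of 0 for 38 of 41 members, all but PSMC1, PSMA7 and PSMB6. The share was 65.2% of all genes and 84.7% of those with a mean of at least 10 RPKM. Samples did not overlap in 13 members, against 34.1% of all genes.

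**Figure D5:**
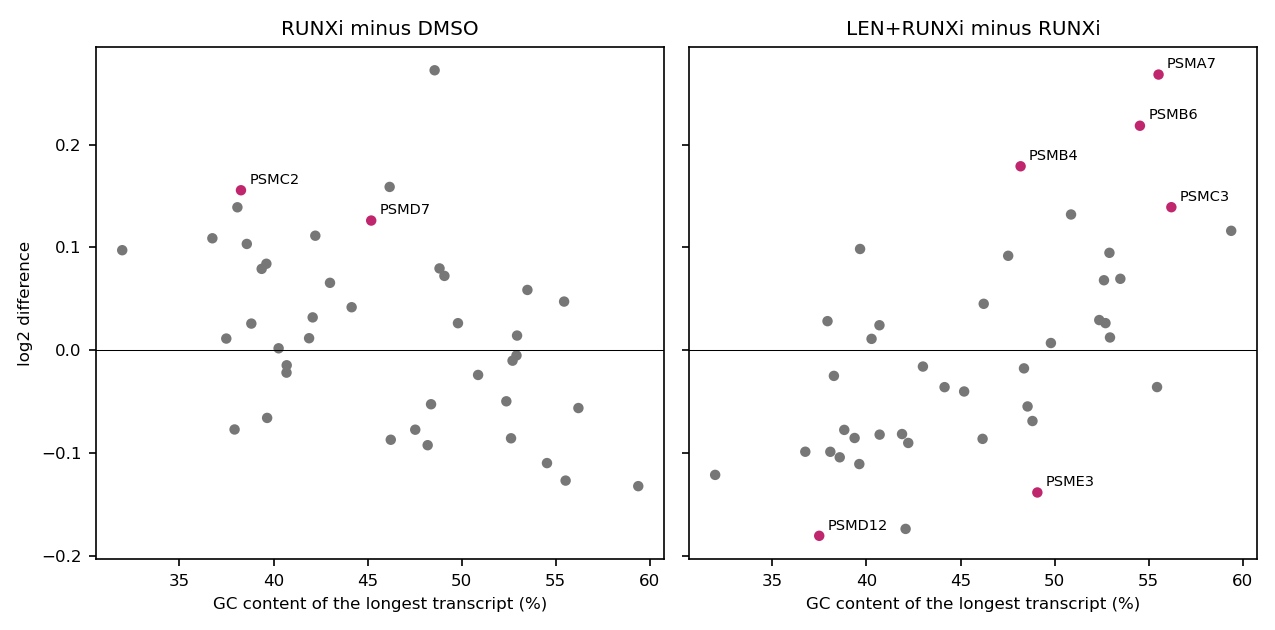
Log2 difference of each of the 41 tested members against the GC content of its longest transcript, in percent, for RUNXi minus DMSO and LEN+RUNXi minus RUNXi, with members at an adjusted p of at most 0.05 coloured and named. Members with more GC lay lower in the first comparison (r = -0.422) and higher in the second (r = 0.643), which share the RUNXi samples.

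Whether the effects of LEN and RUNXi added up was tested as an interaction. It was found for 0 of 41 members with limma and with voom, and for 0.0% of all genes with limma, and an unadjusted p under 0.05 for 3 members (PSMA7, PSMC3 and PSMD5) against 14.4% of all genes. The largest interactions after PSMC1 (-0.27) were those of PSMA7, at 0.26 (SE 0.11, 95% interval 0.025 to 0.50, limma adjusted p = 0.325), and PSMD5, at -0.18 (SE 0.06, 95% interval -0.31 to -0.049, limma adjusted p = 0.284). The intervals are wider here. They stayed within 0.32 of 0 for 36 of 41 members, against 54.4% of all genes and 78.0% of those with a mean of at least 10 RPKM. Without RUNXi replicate 2, PSMA7, PSMB4 and PSMB6 passed, at 0.36, 0.22 and 0.25 (limma adjusted p = 0.0253, 0.0368 and 0.0482), or 7.32% of the members, and in that fit 4.80% of all genes did.

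Promoter sequence is shown for PSMD7, whose difference between LEN+RUNXi and LEN held under every setting, and for PSMD5 and PSMD12, which were lower in LEN+RUNXi. The letters are RefSeq's, from GRCh38.p14, and end before the gene's exons, with capitals for the matches to 4 motifs: TGTGGT or TGCGGT (RUNX), TGACNNNGC (antioxidant response element, bound by NFE2L1 and NFE2L2), CCAAT (NF-Y) and CCGGAA (ETS), each on both strands.
PSMD7, chr16:74296564-74296813, plus strand: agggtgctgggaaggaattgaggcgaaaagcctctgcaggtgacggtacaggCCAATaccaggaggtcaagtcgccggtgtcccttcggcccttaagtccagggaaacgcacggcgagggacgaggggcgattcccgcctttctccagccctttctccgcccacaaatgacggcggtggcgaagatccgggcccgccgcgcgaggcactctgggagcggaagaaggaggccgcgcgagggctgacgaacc
PSMD12, chr17:67366606-67366827, minus strand: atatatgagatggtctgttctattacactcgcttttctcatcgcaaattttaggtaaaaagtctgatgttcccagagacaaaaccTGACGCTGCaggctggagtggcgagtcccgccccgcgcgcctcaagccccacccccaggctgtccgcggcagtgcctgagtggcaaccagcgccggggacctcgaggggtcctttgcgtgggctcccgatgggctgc
PSMD5, chr9:120842952-120843172, minus strand: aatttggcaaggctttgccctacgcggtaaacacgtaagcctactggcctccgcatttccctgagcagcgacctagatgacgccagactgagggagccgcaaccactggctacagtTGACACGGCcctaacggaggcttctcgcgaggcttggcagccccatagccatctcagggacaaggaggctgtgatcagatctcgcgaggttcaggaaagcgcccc
None of the 3 stretches holds a RUNX match, PSMD7 holds an NF-Y match, and PSMD12 and PSMD5 each hold an antioxidant response element match. The PSMD7 stretch also holds exons of the divergent transcript PSMD7-DT, and that of PSMD5 exons of CUTALP. Over the 250 bases before the start, RUNX letters occurred in 5 of the 38 members with an entry (13.2%), against 16.1% of 27305 promoters. The members were PSMB5, PSMC5, PSMD6, PSMD9 and PSMD13. The antioxidant response element occurred in 8 members (21.1%, against 11.03%), CCAAT in 17 (44.7%, against 33.0%) and CCGGAA in 17 (44.7%, against 14.8%). A match is a stretch of letters and no evidence of binding.

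The genes around the proteasome were read from 4 lists of 37 genes, 35 of them tested, and 0 passed with the fold threshold in any comparison. Of the immunoproteasome and PA28 list (5 genes), PSMB8 is listed at 0 and PSMB9 at a mean of 0.0105 RPKM, and the lengths listed for them, 14174 and 8377 bases, exceed their 3480 and 3338 exon bases in GENCODE. As for PSMB3, these values were not read as absence of the transcripts. PSMB10, the other immunoproteasome subunit, was at 112, 105 and 103 RPKM in DMSO, 107, 112 and 106 in LEN, 95.8, 102 and 98.0 in RUNXi and 120.3, 122 and 117 in LEN+RUNXi. Its LEN+RUNXi samples were above all others. It was higher in LEN+RUNXi than in DMSO by 0.17 (limma adjusted p = 0.0247) and than in RUNXi by 0.28 (adjusted p = 0.00287). PSME1, a subunit of the PA28 cap, was higher in LEN+RUNXi than in RUNXi by 0.14 (adjusted p = 0.0363). With the adjusted p alone 8.64% of all genes passed against DMSO and 15.0% against RUNXi. Results for these genes without single samples or after the GC content correction are not given here.

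Of the 11 genes that control proteasome transcription, with NFE2L1, its main activator, and the enzymes that process it, 3 passed with the adjusted p alone in LEN+RUNXi against DMSO, where 8.64% of all genes passed, 337 of the 11241 being lower. All 3 were lower: NFE2L2, a related activator (-0.24, limma adjusted p = 0.0185), NGLY1, the glycanase that acts on NFE2L1 (-0.19, adjusted p = 0.0173), and SEL1L (-0.16, adjusted p = 0.0453). NFE2L1 itself differed by -0.018 (SE 0.041, 95% interval -0.11 to 0.072, limma adjusted p = 0.843) there. NFE2L2 was lower in LEN+RUNXi than in either agent alone as well, by 0.22 against LEN and 0.17 against RUNXi on the log2 scale (adjusted p = 0.0371 and 0.047). FBXW7, a ubiquitin ligase subunit, was higher in RUNXi than in DMSO (0.17, limma adjusted p = 0.0353), where 4.55% of all genes passed. FBXW7 and SEL1L were lower in LEN+RUNXi than in RUNXi (-0.16 and -0.21, limma adjusted p = 0.026 and 0.0126), where 15.0% passed. NGLY1 was lower than in LEN (-0.17, limma adjusted p = 0.041), where 4.62% passed. Results for these 11 genes without single samples or after the GC content correction are not given here. Of 15 proteasome-bound proteins 3 were lower in LEN+RUNXi than in RUNXi with the adjusted p alone, the deubiquitinases USP14 (-0.19) and UCHL5 (-0.14) and the shuttle factor UBQLN1 (-0.18), where 15.0% of all genes passed and 5.84% were lower, and 0 passed in the other 4 comparisons of conditions.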

How the data were processed

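Poly(A) RNA of OPM-1 cells was sequenced after stranded library preparation. The authors aligned reads to GRCh38 with STAR (no version is given in the sources used here) and deposited RPKM values with gene lengths that the header credits to featureCounts; the labels also name FastQC and Cuffnorm. FPKM had been assumed in planning. Values times length were whole multiples of 1 step per sample for 100% of values (tolerance 0.1 read), which gave the reads on genes. The members, lists and rules were chosen with earlier results of these data known.

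Genes whose mean reached 0.5 RPKM, 11241 in all, were compared as log2(RPKM + 0.1), which understates folds of low genes, with limma 3.58.1 in R 4.3.3, all 12 samples, 1 mean per condition, a variance trend and Benjamini-Hochberg adjustment over all genes. A call needed both an absolute log2 difference of at least 0.32 and an adjusted p of at most 0.05 (interaction: the adjusted p alone). A count model was not used because values are normalized; voom was run on the recovered reads. Named genes are all members with an adjusted p of at most 0.05, the 3 largest differences per comparison, the highest and lowest member per role, the untested members, the catalytic subunits, chaperones and regulators, and PSMD2, PSMD4 and PSMD14 of the 19S particle; PSMA2, PSMA3, PSMA4, PSMB1, PSMC4, PSMC5, PSMD1, PSMD6, PSMD9, PSMD11 and PSMD13 were named after their values were seen. Alternatives were pseudocounts of 1 and 0.01, a mean of at least 1, any value above 0, median-ratio and quantile scaling, only the conditions compared, the replicate block, no variance trend, no fold threshold and leaving out each sample, and, chosen after seeing the data, voom and a lowess correction (span 0.3) for GC content and length. Coordinates are from GENCODE 44 and promoters from RefSeq. The test was checked on simulated data. A single result is not reported here. Read counts cover counting error only. Python 3.11.15 with pandas 2.3.3 and matplotlib 3.10.9 was used.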

Additional observations from a re-analysis of the deposited data

How the results depend on the processing

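With the fold threshold, 0 members were called up or down in all 5 comparisons of conditions under the alternatives run, apart from 1 up in LEN+RUNXi minus RUNXi without RUNXi replicate 2 (range over the left-out samples 0 to 1). Members called up for the interaction ranged from 0 to 3, the 3 also without RUNXi replicate 2. Without the fold threshold the counts were 2 up in RUNXi minus DMSO, 2 up and 1 down in LEN+RUNXi minus DMSO, 1 up and 1 down in LEN+RUNXi minus LEN and 4 up and 2 down in LEN+RUNXi minus RUNXi. The split in LEN+RUNXi minus RUNXi depended on scaling. It was 1 up and 5 down after median-ratio rescaling and 3 up and 5 down after quantile scaling. The correction for GC content and length gave 0 up and 3 down. The members' median difference moved by less than its spread between replicates (0.0318 on the log2 scale) in every comparison and alternative. Of the 299 alternative values of the 13 differences with an adjusted p of at most 0.05, 103 lost it and 0 reversed; the cause was not tested. The fit to only the conditions compared, which has fewer samples, kept PSMD7 in LEN+RUNXi minus LEN and PSMD12 in LEN+RUNXi minus RUNXi. Deviations of samples with equal replicate numbers had a mean correlation of 0.052 (above 0.1 in 2 of 18 pairs). Different numbers gave -0.026 (0 of 36 pairs), so any pairing was weak. The replicate block raised the share of all genes passing with the adjusted p alone in all 5 comparisons of conditions, from 15.0% to 20.2% in LEN+RUNXi minus RUNXi. With the block 0 members were called with the fold threshold. With the adjusted p alone PSMD4 was lost in LEN+RUNXi minus DMSO, and PSMD14, PSMG1 and PSMG2 were added in LEN+RUNXi minus RUNXi. With 3 samples per condition, a 1.25-fold change would lie outside the interval of most members but not of PSMC1, at 33 to 68 reads.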
